A study of Mus musculus with 6 samples.

Results

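The dyad is the contact of the heart muscle cell at which a transverse tubule, an inward fold of the surface membrane, faces a cistern of the sarcoplasmic reticulum. The genes described are 10 that build or hold this contact: the junctophilins Jph1 and Jph2, the tubule-shaping and membrane proteins Bin1, Mtm1, Cav3 and Dysf, the organizers Cmya5 and Speg, and the reticulum proteins Srl and Tmem38a. They were chosen by name, and all 10 were found by Ensembl identifier among the 20254 genes of the table. All 10 also passed the filter on low values, which 13823 genes passed.

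In a working dyad, L-type calcium channels of the tubule open next to ryanodine receptors of the reticulum, and the calcium that enters triggers release of stored calcium. Junctophilins bridge the membranes across the narrow cleft, amphiphysin 2 and caveolin 3 help to fold the tubule, and phosphoinositide turnover by myotubularin sets the lipid identity of the membranes that feed it. Disarray of tubules and loss of junctophilin 2 are well known in failing hearts.

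Hearts of 6 adult C57BL/6 mice were sequenced, 3 wild-type (WT) and 3 with the label Trdn-as knockout (KO); Trdn-as is a long non-coding RNA, antisense by its name to Trdn, which encodes triadin of the dyad. For either genotype, replicates 1 and 2 were 14 months old and replicate 3 was 5 months old, so that 4 hearts were compared with 2 for age. The labels name no allele, no Cre line and no treatment, and they do not say how the knockout was made. They also do not say whether replicates came from separate litters, so p-values apply to these 6 hearts only. In the main fits the p-values rest on the spread left after the terms of the fit, moderated over all genes. At 5 months each genotype has 1 heart.

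The values are a normalized gene-level signal, so a value is a level on a common scale and not a number of reads. Totals ran from 19.8 to 23.5 per library in units of 1e6, and the read depth behind each value is unknown. The summed signal of Y-linked genes was 54.9 and 82.2 in replicate 2 of WT and KO and 2496 to 4482 in the other libraries. Both libraries of low Y-linked signal were 14 months old, so the age comparison was not balanced for this signal. Sex was not a covariate in the fits, and its part in the results was not tested. Heart muscle markers, 10 genes, summed to 812792 or more in every library. The skeletal myosins Myh1 and Myh2 stayed at or below 1.84 and 1.24, but the skeletal muscle markers, 10 genes, summed to 1217 to 4999.6. In whole heart tissue, fewer muscle cells and less RNA per muscle cell cannot be told apart. Trdn stood at 5702, 5600 and 9104 in WT hearts and 3429, 3460 and 5606 in KO (replicates 1, 2 and 3; log2 difference −0.71, SE 0.10, limma adjusted p = 0.261). In the 14-month hearts alone Trdn passed, at −0.71 (limma adjusted p = 0.0476). At each age the KO values were lower, and Trdn-as itself was not analysed here.

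Levels between genes are given per kilobase (kb) of the longest coding transcript annotated in GENCODE M21 (GRCm38, the build of mm10). Srl, which encodes sarcalumenin, a calcium-binding glycoprotein of the reticulum lumen, had the highest level, with a mean of 2783 per kb (SD 101, n = 6). Tmem38a, the counter-ion channel TRIC-A of the reticulum, followed at 2577 (SD 273), and its range overlapped that of Srl. Cmya5 (1255, SD 109) and Jph2 (1208, SD 198) came next and did not differ beyond their ranges. The remaining genes were lower: Cav3 at 479 (SD 143), Speg at 236 (SD 63.0) and Dysf at 151 (SD 16.6). At the low end were Mtm1 at 107 (SD 37.6), Jph1 at 68.4 (SD 11.0) and Bin1 at 55.9 (SD 6.81). Of the neighbours in this order, Tmem38a and Cmya5 and also Jph2 and Cav3 had ranges that did not overlap, and in the other pairs they overlapped. Per kb of all annotated exons merged, Mtm1, whose merged exons are 13935 bases long against 3488 in the longest coding transcript, moved to the lowest place, at 26.9.

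**Figure D1:**
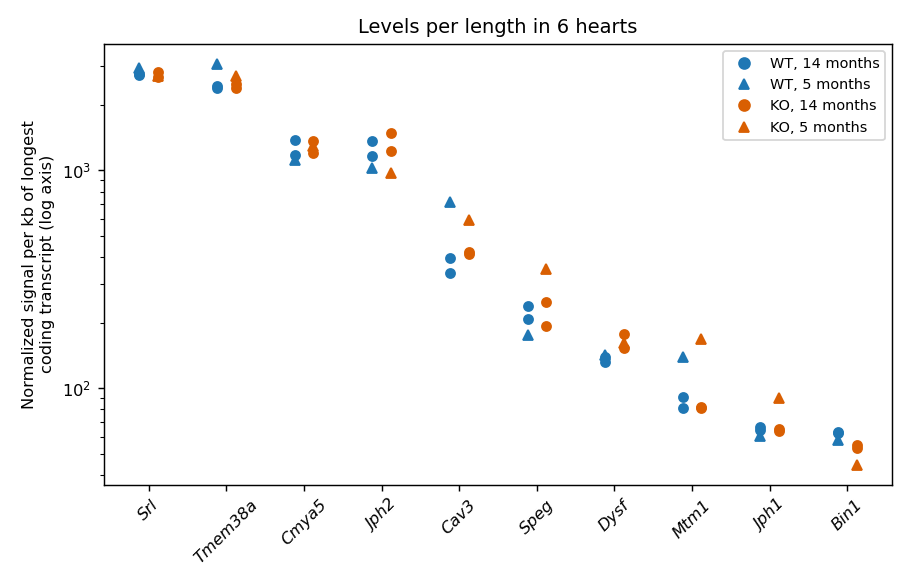
Normalized signal per kb of the longest coding transcript (log axis) for each of the 10 genes, ordered by mean, with 1 point per heart (blue WT, orange KO; circles 14 months, triangles 5 months). Srl and Tmem38a lie at 2381 per kb or above in every heart, and Bin1 lies at 62.8 or below.

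Jph2, Tmem38a and Dysf were more abundant per kb than their relatives in every library. The Jph2 level per kb was 10.7 to 23.4 times that of Jph1 in the same library, and the neuronal junctophilins Jph3 and Jph4 stayed at values of 6.55 and 12.3 or below. Tmem38a was 14.1 to 22.3 times Tmem38b, which encodes the related channel TRIC-B. Dysf was 3.32 to 9.21 times Myof, the ferlin myoferlin. Cav3, the muscle caveolin, was at 0.167 to 0.388 of Cav1, the caveolin of endothelial and other non-muscle cells.

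Spread over the 6 hearts differed among the genes. Srl varied least, with a coefficient of variation of 3.61%, followed by Cmya5 at 8.71% and Tmem38a at 10.6%. Mtm1 (35.0%), Cav3 (29.8%) and Speg (26.6%) varied most. Among the 4 hearts of 14 months alone the coefficient was 1.99% for Jph1, 5.78% for Mtm1 and 9.59% for Cav3, against 16.1, 35.0 and 29.8% over all 6. It was 8.57% for Cmya5, close to its value over all 6, and 13.3% for Dysf, above the 11.0% over all 6.

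**Figure D2:**
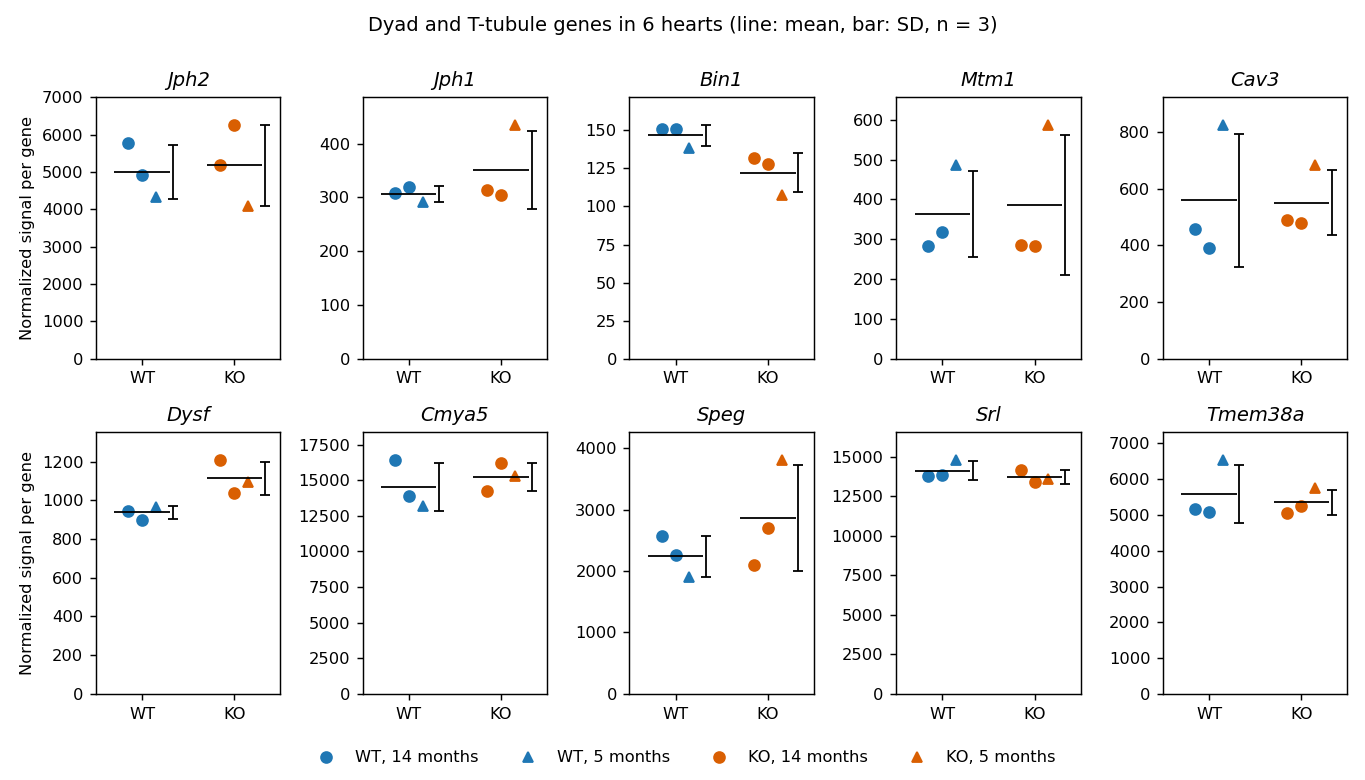
Normalized signal (vertical axis, from 0) of each gene in WT and KO hearts, with 1 point per heart (circles 14 months, triangles 5 months), the mean as a line and the SD as a bar (n = 3). Triangles lie above all circles for Mtm1, Cav3 and Tmem38a and below all circles for Jph2, and KO lies below WT throughout for Bin1 and above WT throughout for Dysf.

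The comparison of KO with WT asks whether the genes of the dyad differ where the antisense partner of triadin is knocked out. None of the 10 genes passed the test, in either direction. The test was limma on log2(value + 1) with age as a covariate, fitted over all genes, and the smallest adjusted p among the 10 genes was 0.745. In the background, 0% of the 13823 genes tested passed (0 genes, with 841 at an unadjusted p under 0.05, 6.08%), and of the 10 genes 0 reached an unadjusted p under 0.05. Of the 10 genes 7 stood above and 3 below WT with a median log2 difference of 0.038, where the median over all genes tested was −0.023. Under quantile normalization 9 stood above and 1 below, with a median of 0.10 against −0.0088 over all genes. Scaling to the total without mitochondrially encoded genes gave the same counts, with a median of 0.14 against 0.081.

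**Figure D3:**
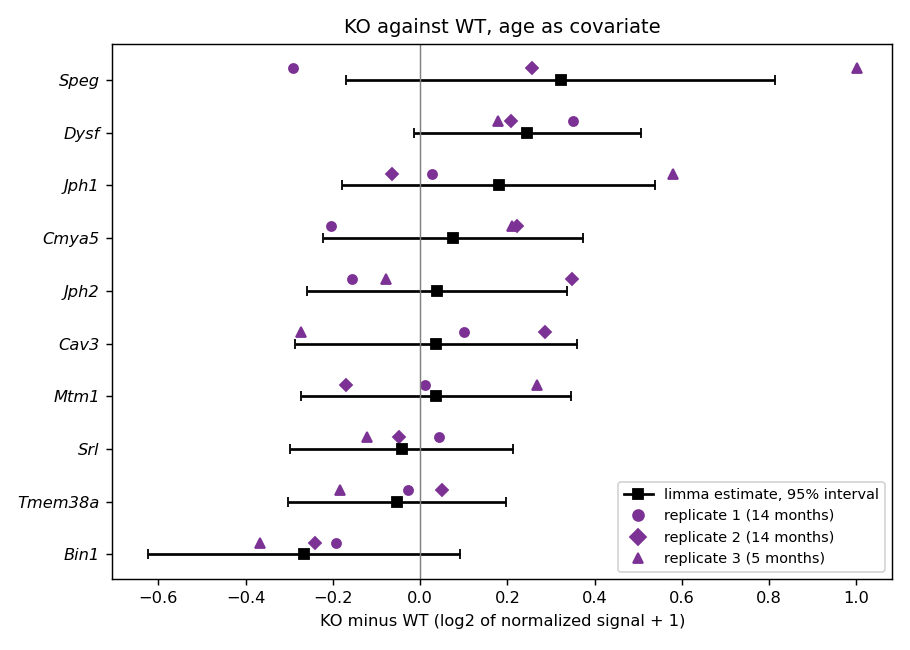
KO minus WT on the log2(value + 1) scale for each gene: black squares with 95% intervals are limma estimates (n = 3 per genotype, age as covariate), and purple symbols are the differences between libraries of the same replicate number. All 10 intervals include 0. Bin1 and Dysf are the 2 genes whose 3 differences share a sign, which follows from their non-overlapping genotypes.

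The junctophilins anchor the reticulum to the tubule membrane. Jph2, the cardiac junctophilin (chromosome 2, 163336242 to 163397993, minus strand), had values of 5761, 4917 and 4317 in WT hearts and 5173, 6264 and 4091 in KO (replicates 1, 2 and 3). The groups overlapped, and the highest and the lowest heart were both KO. The log2 difference was 0.039 (SE 0.13), and the 95% interval in folds ran from 0.836 to 1.26. Jph1, the junctophilin best known from skeletal muscle (chromosome 1, 16964560 to 17097889, minus strand), had values of 308, 319 and 291 in WT hearts and 314, 305 and 435 in KO. The KO heart of 5 months stood apart at 435, and the other 5 hearts lay within 291 to 319. The log2 difference of Jph1 was 0.18 (SE 0.16, 0.884 to 1.45 in folds), and in the 14-month hearts alone it was −0.019.

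Genes that shape and maintain the tubule membrane were next. Bin1, which encodes amphiphysin 2, a membrane-bending protein that seeds tubules (chromosome 18), was at 151, 151 and 139 in WT hearts and 132, 128 and 107 in KO. Every KO heart was below every WT heart, and in the pairs of the same replicate number KO held 87.4, 84.6 and 77.4% of WT. In the background, all KO libraries lay below all WT libraries in 2.89% of genes tested and above them in 2.88%. The log2 difference was −0.27 (SE 0.16) with an interval of 0.649 to 1.06 in folds, and it did not pass the test (limma adjusted p = 0.745). Bin1 was also the least abundant of the 10 genes per kb of the longest coding transcript.

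Dysf, which encodes dysferlin, a calcium-binding ferlin of membrane resealing that is also found at tubules (chromosome 6, 84008590 to 84211060, plus strand), differed in the opposite direction. Its values were 948, 900 and 967 in WT hearts (mean 938, SD 34.6, n = 3) and 1208, 1040 and 1095 in KO hearts (mean 1114, SD 85.8, n = 3). Every KO heart was above every WT heart, at 127, 116 and 113% of WT in replicates 1, 2 and 3. The log2 difference was 0.25 (SE 0.11) with an interval of 0.99 to 1.42 in folds (limma adjusted p = 0.745). This was the smallest unadjusted p of the 10 genes, 0.0615 by limma.

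Mtm1, the phosphoinositide phosphatase myotubularin (chromosome X, 71210767 to 71315691, plus strand), was at 284, 318 and 488 in WT hearts and 286, 283 and 588 in KO. Cav3, the muscle caveolin that scaffolds caveolae and nascent tubules (chromosome 6, 112459505 to 112472872, plus strand), was at 457, 392 and 826 in WT hearts and 489, 478 and 683 in KO. For both genes the genotypes overlapped and the 5-month hearts were the highest. The genotype difference was 0.037 log2 for each (SE 0.13 and 0.14), with intervals of 0.828 to 1.27 in folds for Mtm1 and 0.82 to 1.28 for Cav3.

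The organizers are large proteins that position the contact. Cmya5, which encodes myospryn, a tether of the reticulum at the Z-line that binds the ryanodine receptor (chromosome 13, 93040713 to 93144724, minus strand), was at 16415, 13886 and 13216 in WT hearts and 14251, 16188 and 15285 in KO. The genotypes overlapped, with a log2 difference of 0.076 (SE 0.13, 0.857 to 1.30 in folds). Speg, a kinase of the myosin light chain kinase family that binds and phosphorylates junctophilin 2 and the ryanodine receptor (chromosome 1, 75375297 to 75432320, plus strand), was at 2565, 2254 and 1901 in WT hearts and 2097, 2694 and 3806 in KO. The KO heart of 5 months was the highest and the WT heart of 5 months the lowest. The log2 difference of Speg was 0.32 (SE 0.21), the widest of the 10 intervals at 0.889 to 1.76 in folds, and at 14 months alone it was −0.017.

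The 2 genes of the reticulum membrane and lumen had the narrowest intervals. Srl (chromosome 16, 4480216 to 4541816, minus strand) was at 13753, 13825 and 14782 in WT hearts and 14174, 13365 and 13587 in KO, a log2 difference of −0.042 (SE 0.11). Its interval was 0.813 to 1.16 in folds. Tmem38a (chromosome 8, 72572055 to 72587282, plus strand) was at 5156, 5081 and 6536 in WT hearts and 5057, 5264 and 5750 in KO, a log2 difference of −0.054 (SE 0.11). The interval of Tmem38a, 0.81 to 1.15 in folds, was the narrowest of the 10 on the log2 scale. The differences of both genes turned positive under quantile normalization (0.093 and 0.045) and under scaling to the total without mitochondrially encoded genes (0.064 and 0.052).

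The second comparison asks how the same genes differ with age. Between 5 and 14 months, with genotype as a covariate, 2 of the 10 genes passed the test, Mtm1 and Cav3, both higher at 5 months. The background was 33.7% of all genes tested (4663 genes, 16% higher and 17.7% lower at 5 months), so 2 of 10 was below the share over all genes. Of the 10 genes 7 were above and 3 below their 14-month level, with a median log2 difference of 0.11 against −0.022 over all genes. That median was −0.024 under quantile normalization and −0.094 under scaling to the total without mitochondrially encoded genes. The latter scaling moved the median over all genes by −0.20, and with it the called genes parted into 1233 higher and 3403 lower. Mitochondrially encoded genes took 40.0 and 41.6% of the signal at 5 months and 44.3 to 49.4% at 14 months, and their part in the results was not tested.

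Mtm1 had a mean of 293 at 14 months (SD 16.9, n = 4) and 538 at 5 months (SD 70.8, n = 2). The log2 difference was 0.87 (SE 0.14), or 1.83-fold (95% interval 1.46 to 2.30, limma adjusted p = 0.00335). It was higher in each genotype, 1.62-fold in WT and 2.07-fold in KO. The difference passed in all 14 alternatives run, where the adjusted p ranged from 0.00217 to 0.0239 and the log2 difference from 0.67 to 1.05.

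Cav3 had a mean of 454 at 14 months (SD 43.5, n = 4) and 754 at 5 months (SD 101, n = 2). The log2 difference was 0.73 (SE 0.15), or 1.66-fold (95% interval 1.31 to 2.10, limma adjusted p = 0.00816). It was 1.95-fold in WT and 1.41-fold in KO. It also passed in all 14 alternatives run, with adjusted p from 0.00352 to 0.0417 and log2 differences from 0.50 to 0.96. Cavin4, a cavin of muscle caveolae that binds caveolin 3, was likewise higher at 5 months, by 0.52 log2 (SE 0.12, limma adjusted p = 0.014), but not under scaling to the total without mitochondrially encoded genes (0.32, adjusted p = 0.0902).

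Jph2 was the one gene of the 10 with both 5-month hearts below all 14-month hearts: 4317 and 4091 against 4917 to 6264. The mean was 5529 at 14 months (SD 604, n = 4) and 4204 at 5 months (SD 160, n = 2). Its log2 difference of −0.39 (SE 0.14, 0.614 to 0.95 in folds) did not pass over all genes (limma adjusted p = 0.0594). It passed under upper-quartile scaling (adjusted p = 0.0445), quantile normalization (0.0047), scaling to the total without mitochondrially encoded genes (0.00783) and without WT replicate 3 (0.0494), and over all 14 alternatives its adjusted p ran from 0.0047 to 0.311. Tmem38a had both 5-month hearts above all 14-month hearts, 6536 and 5750 against 5057 to 5264, with a log2 difference of 0.25 (SE 0.11, limma adjusted p = 0.124). It passed without KO replicate 3, at 0.35 log2 (adjusted p = 0.0272), and was at −0.033 under quantile normalization, with adjusted p from 0.0272 to 0.801 over the 14 alternatives. In all, the ages did not overlap in 4 of the 10 genes, 3 with 5 months above and 1 with it below, where 25% of all genes tested lay above and 25.7% below.

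Srl, Cmya5, Dysf and Bin1 did not pass, with log2 differences of 0.041 (SE 0.12), −0.091 (SE 0.14), 0.017 (SE 0.12) and −0.19 (SE 0.16). For Srl the interval ran from 0.852 to 1.24 in folds. The ratio of Cmya5 to Fsd2, a partner of myospryn, was 1.18 to 1.30 per kb in the 4 hearts of 14 months and 0.918 and 0.929 at 5 months. The ratio of Mtm1 to Bin1 per kb was 1.30 to 1.53 at 14 months and 2.43 and 3.78 at 5 months. Per kb of merged exons its mean over the 6 hearts was 0.855 against 1.997 by the longest coding transcript. These ratios are descriptions and were not tested.

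Promoter sequence is shown for the 4 genes whose ages did not overlap, as the 250 bases before the RefSeq start (GRCm38.p6), 5′ to 3′ on the strand of the gene. Capitals mark matches to the E-box CANNTG, which reads the same on both strands. The windows are chr6:112459255-112459504 for Cav3, chrX:71210517-71210766 for Mtm1, chr8:72571573-72571822 for Tmem38a and chr2:163397994-163398243 for Jph2.
Cav3: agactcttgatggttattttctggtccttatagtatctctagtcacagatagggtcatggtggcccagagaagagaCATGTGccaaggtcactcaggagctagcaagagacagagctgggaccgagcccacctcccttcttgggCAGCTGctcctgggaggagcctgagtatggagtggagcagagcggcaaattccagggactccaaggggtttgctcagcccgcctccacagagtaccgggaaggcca
Mtm1: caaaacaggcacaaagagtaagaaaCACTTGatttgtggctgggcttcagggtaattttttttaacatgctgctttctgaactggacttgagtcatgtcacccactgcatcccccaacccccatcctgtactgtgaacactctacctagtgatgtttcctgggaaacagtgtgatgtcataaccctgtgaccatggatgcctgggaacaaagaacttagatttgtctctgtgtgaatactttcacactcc
Tmem38a: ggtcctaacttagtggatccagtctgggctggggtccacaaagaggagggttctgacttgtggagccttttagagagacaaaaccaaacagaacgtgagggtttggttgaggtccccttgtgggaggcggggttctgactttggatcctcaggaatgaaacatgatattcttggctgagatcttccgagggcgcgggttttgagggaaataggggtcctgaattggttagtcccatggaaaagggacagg
Jph2: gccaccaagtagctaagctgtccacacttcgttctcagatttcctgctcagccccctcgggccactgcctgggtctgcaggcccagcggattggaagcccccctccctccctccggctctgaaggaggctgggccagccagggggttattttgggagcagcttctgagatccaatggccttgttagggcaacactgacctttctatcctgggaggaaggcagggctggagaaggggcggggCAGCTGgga
The Cav3 window held 2 E-boxes, one of them of the form CAGCTG, the Jph2 window 1 of that form and the Mtm1 window 1 of another form, and Tmem38a held 0. Of all 32851 windows of this length 66.2% held CANNTG and 13% held CAGCTG. None of the 4 windows held TATAAA, which 12.4% of all windows held. GC content was 56% in Cav3, 62% in Jph2, 51.6% in Tmem38a and 44.8% in Mtm1, against a median of 52.4% over all windows. RefSeq gives Mtm1 3 windows, and the one shown is the most upstream. The others had a GC content of 59.2 and 64.8% and held 3 and 2 E-boxes. Jph2 also has a further window, chr2:163397974-163398223, with a GC content of 62.8% and 1 E-box, of the form CAGCTG. A match is a description of the letters and not a site.

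Whether the genotype difference itself changed with age was asked by the interaction of genotype and age. None of the 10 genes passed (limma, 2 at an unadjusted p under 0.05), where 2.08% of all genes did (287 genes, with 23.2% at an unadjusted p under 0.05). Each genotype has 1 heart at 5 months, so this test rests on the spread of the 14-month hearts. Speg and Jph1 were the 2 genes at an unadjusted p under 0.05.

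Speg was 0.789 of its 14-month mean in the 5-month WT heart and 1.59 in the 5-month KO heart. In WT the 5-month heart was below both 14-month hearts, and in KO it was above both. The age effect in KO less that in WT was 1.02 log2 (SE 0.24, 95% interval 0.46 to 1.58, limma adjusted p = 0.0755). Over 10 alternatives its adjusted p ran from 0.0308 to 0.223. It passed under scaling to the total without mitochondrially encoded genes (1.29 log2, adjusted p = 0.0308), which moved the median interaction over all genes by 0.27, and without KO replicate 2 (1.20 log2, adjusted p = 0.0365).

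Jph1 was 0.927 of its 14-month mean in the 5-month WT heart and 1.41 in the 5-month KO heart, again on opposite sides of both 14-month hearts. The difference of differences was 0.60 log2 (SE 0.21, 95% interval 0.11 to 1.09, limma adjusted p = 0.15). The ratio of Jph2 to Jph1 per kb was 10.7 in the 5-month KO heart, against 16.9 in the 5-month WT heart and 17.6 to 23.4 at 14 months. Cav3 had the largest negative value of the 10 genes, −0.47 log2 (SE 0.21, limma adjusted p = 0.235).

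**Figure D4:**
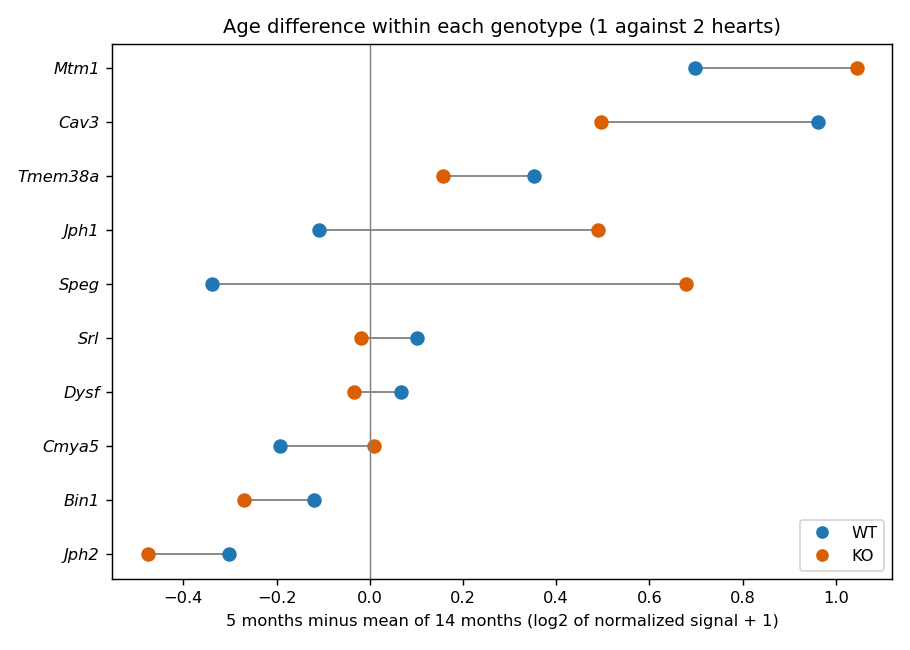
Difference between the 5-month heart and the mean of the 2 hearts of 14 months on the log2(value + 1) scale, in WT (blue) and KO (orange), for each gene. Mtm1 and Cav3 lie to the right of 0 in both genotypes, while Speg and Jph1 lie on opposite sides of 0 (−0.34 and 0.68 for Speg, −0.11 and 0.49 for Jph1).

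Some sums of tissue markers in 5-month hearts lay outside the range of 14 months, and the part of these in the results was not tested. This held in both hearts for atrial markers and in WT only for heart muscle markers. In KO only, it held for fibroblast, smooth muscle and pericyte, macrophage, adipocyte and erythroid markers. The 5-month KO heart had 11040 for smooth muscle and pericyte markers (14285 to 17244 at 14 months) and 2308 for macrophage markers (2832 to 3853). Its adipocyte sum was 372 (382 to 1841 at 14 months) and its erythroid sum 2727 (6782 to 66820). The 10 heart muscle markers summed to 1413660 in the 5-month WT heart, 913932 in the 5-month KO heart and 812792 to 936298 at 14 months, with none of the 10 at 0 in any library. Fibroblast markers, 8 genes with none at 0, summed to 18999.6 and 12359 at 5 months in WT and KO and 17824 to 20516 at 14 months. The 6 atrial markers summed to 64898 and 41185 at 5 months and 14186 to 27633 at 14 months. Between the genotypes the fibroblast sums were 18999.6 to 20516 in WT hearts and 12359 to 20216 in KO.

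RefSeq lists 4 start sites for Speg, whose products include long kinase forms and short forms. Which of these the gene-level value sums is unknown, since the annotation behind the values is not given. The windows before the most upstream and the most downstream start (chr1:75375047-75375296 and chr1:75399835-75400084) are shown because the gene-level value does not separate the starts. Capitals mark CANNTG and, in the upstream window, also a match to the MEF2 site, the element bound by the muscle factor MEF2.
Speg, the most upstream start: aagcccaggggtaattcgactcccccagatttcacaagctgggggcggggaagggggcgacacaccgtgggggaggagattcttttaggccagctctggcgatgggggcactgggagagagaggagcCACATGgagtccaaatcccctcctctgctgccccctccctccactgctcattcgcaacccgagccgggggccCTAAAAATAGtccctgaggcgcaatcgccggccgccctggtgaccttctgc
Speg, the most downstream start: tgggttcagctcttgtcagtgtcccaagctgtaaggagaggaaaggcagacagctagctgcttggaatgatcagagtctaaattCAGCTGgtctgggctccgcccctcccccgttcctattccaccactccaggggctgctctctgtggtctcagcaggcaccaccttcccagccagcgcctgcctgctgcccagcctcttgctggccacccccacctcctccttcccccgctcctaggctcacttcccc
The MEF2 site was found in 1 of the 14 windows searched for 7 of the genes, and in 2.92% of all 32851 windows. The upstream window had a GC content of 63.6% and the downstream window 61.6%.

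Other genes of the dyad, in 6 lists of 72 genes, were measured in the same fits. Of these 68 were tested, and by genotype 0 passed (limma), with 19 above and 49 below WT and a median of −0.097 log2, which was 0.0089 under scaling to the total without mitochondrially encoded genes (35 above, 33 below). By age 8 were higher and 18 lower at 5 months (4 and 26 under that scaling), 38.2% against 33.7% over all genes, with a median of −0.12. For the interaction 3 passed, all with a negative value, against 0 under quantile normalization and 4 by the non-mitochondrial total, 2 of them negative and 2 positive (Mtmr1 and Ahnak, named after their values were seen).

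In the release complex, 7 genes were tested and 3 were higher and 1 lower at 5 months. Ryr2, the ryanodine receptor, was at 26722, 26920 and 19053 in WT hearts and 25542, 25579 and 18150 in KO, a log2 age difference of −0.49 (SE 0.12, limma adjusted p = 0.015). Jph2 and Ryr2 both had lower values at 5 months, and the level of Jph2 per kb was 0.729 to 0.978 of Ryr2 in every library. Per kb of merged exons the order turned, with a mean ratio of 1.46 against 0.864. Asph, whose products include the reticulum proteins junctin and junctate, and Sri, the calcium-binding protein sorcin, were higher at 5 months by 0.77 (SE 0.13, limma adjusted p = 0.004) and 0.76 (SE 0.12, limma adjusted p = 0.003). Trdn was the third gene called higher, at 0.70 (SE 0.11). Casq2, the calcium buffer calsequestrin, stood at 0.30 (SE 0.12, limma adjusted p = 0.082). Hrc, the histidine-rich reticulum protein to which triadin binds, passed for the interaction at −1.10 (SE 0.14, limma adjusted p = 0.029), but not under quantile normalization (−0.82, adjusted p = 0.0511).

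Among the relatives of the 10 genes 16 were tested, 2 higher and 3 lower (0 and 4 by the non-mitochondrial total, 2 and 5 under quantile normalization). Ehd2, an ATPase at the neck of caveolae, was lower at 5 months, at −1.02 (SE 0.14), and Fer1l5, a ferlin related to dysferlin, at −1.96 (SE 0.45, at values of 4.47 to 36.4). Mylk3, the cardiac myosin light chain kinase, was higher by 0.64 (SE 0.15), but did not pass under quantile normalization (0.31, adjusted p = 0.166) or the non-mitochondrial total (0.44, adjusted p = 0.0544).

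Among genes that shape tubules and caveolae 14 were tested, 2 higher and 4 lower at 5 months (1 and 6 by the non-mitochondrial total). Tcap, the titin cap protein telethonin, was at 6367, 9412 and 22371 in WT hearts and 5190, 7247 and 14708 in KO, higher at 5 months by 1.40 (SE 0.20, limma adjusted p = 0.002). Sypl2, which encodes the synaptophysin-like tubule protein mitsugumin 29, was low, at 7.14 to 36.9, and lower at 5 months, at −1.46 (SE 0.42, limma adjusted p = 0.03; 0.0623 under quantile normalization). Dnm2, the membrane-cutting GTPase dynamin 2, which acts with amphiphysin 2, was lower, at −0.98 (SE 0.11, limma adjusted p = 0.001). It was named after its values were seen, as was Cavin4 above. Popdc2, a membrane protein of the heart, stood at −0.27 (SE 0.14) and did not pass, but it passed under quantile normalization (−0.55, adjusted p = 0.00517) and the non-mitochondrial total (−0.47, adjusted p = 0.0116).

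In membrane repair 10 genes were tested, 1 higher and 3 lower at 5 months (0 and 4 by the non-mitochondrial total). Trim72, which encodes the repair protein mitsugumin 53, was at 3281, 3565 and 2449 in WT hearts and 3048, 2734 and 2180 in KO, lower at 5 months, at −0.44 (SE 0.12, limma adjusted p = 0.021). Capn1, a calcium-activated protease, was lower, at −0.95 (SE 0.16), and Anxa1, a calcium-dependent membrane-binding annexin, higher by 0.60 (SE 0.15), the latter not past the threshold by the non-mitochondrial total (0.40, adjusted p = 0.1). Ahnak, a large scaffold that binds dysferlin, stood at 0.40 (SE 0.14) and did not pass. Anxa6 passed for the interaction, at −1.06 (SE 0.15), but not under quantile normalization (−0.91, adjusted p = 0.0539). All 10 genes stood below WT in KO, the opposite side to Dysf, with a median of −0.22, and 0 passed by limma. Under quantile normalization and under the non-mitochondrial total 9 of the 10 did so. Other lists also lay mostly below WT: all 8 fibroblast markers (median −0.28), all 6 atrial markers (−0.34) and 9 of 10 heart muscle markers (−0.22), where 7455 of the 13823 genes tested lay below.

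Among anchoring and contact genes 13 were tested, 0 higher and 5 lower at 5 months (0 and 7 by the non-mitochondrial total and under quantile normalization). Stim2, a calcium sensor of the reticulum, was lower, at −1.43 (SE 0.19), and Esyt1, a tether between reticulum and surface membrane, at −1.03 (SE 0.12). Desmin (Des) and alpha-actinin 2 (Actn2), the most abundant of the list, stood at −0.12 (SE 0.13) and −0.44 (SE 0.19) and did not pass. Under quantile normalization both passed (Des −0.40, adjusted p = 0.0339; Actn2 −0.72, adjusted p = 0.00439), and Actn2 also by the non-mitochondrial total (−0.64, adjusted p = 0.0111). Rtn2, a membrane-curving reticulon, passed for the interaction at −0.94 (SE 0.17), but under none of the 3 other scalings (adjusted p = 0.0515 to 0.0802).

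The mean profile of the 10 genes, each centred on its own mean over the 6 libraries, was highest in the 5-month KO heart (0.17 log2) and lowest in WT replicate 2 (−0.10). Single genes followed it unevenly, with a Pearson r of 0.87 for Mtm1, 0.79 for Cav3 and −0.81 for Bin1. Each gene is itself part of this mean, and genes of wide spread, such as Mtm1 and Cav3, weigh more in it. The 5 other genes most like the mean profile over the 6 libraries were Mak16, C9orf72, Olfr571, Cwf19l2 and Tmem68, with Pearson r from 0.993 to 0.996. With 6 libraries of 2 ages such values describe these libraries only.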

How the data were processed

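RNA of 6 mouse hearts was sequenced, and the submitters' processing notes name Salmon 1.5.2 and mm10. Not given in the sources used here are annotation, strand setting and the way of normalizing. The table deposited by the authors holds a normalized signal per gene, read from values that are not whole and from median ratios to the mean library close to 1 (1.00 to 1.01). Of 20254 genes, 20122 matched a symbol of GENCODE M21 (GRCm38), and 108 broken lines that hold no values were skipped.

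Values were tested with limma 3.58.1 in R 4.3.3 on log2(value + 1), with trend and robust options, for genes at 10 or more in at least 3 libraries, and Benjamini-Hochberg adjustment over all 13823 genes (threshold 0.05). Models were KO against WT with age, 5 against 14 months with genotype (3 residual degrees of freedom each), and their interaction (2). The fit was tested on simulated data. Fold differences of the limma fits are on the log2(value + 1) scale, SE is limma's and SD is over libraries. Folds within a genotype (the 5-month value over the mean of the 14-month values) and percentages of WT are ratios of the values themselves. Levels per kb were divided by the longest coding transcript.

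The 10 genes and all lists were chosen with earlier results of these data known. Named beside them were the 2 most abundant and up to 2 called genes per list and comparison, and the 5 genes of most similar profile. Some genes of these lists are not reported here. Lists of fibroblast, endothelial, smooth muscle, macrophage, adipocyte, erythroid, atrial, skeletal and heart muscle markers were summed per library. Same-number libraries had deviations from the genotype means that correlated at 0.390, 0.383 and 0.617, but replicate 3 is also the 5-month heart, other pairs of 14 months gave 0.369 and 0.382, and within 14 months the value was 0.0147. The labels state no shared litter or day. Of the 10 genes, 6 have a span, introns included, that overlaps an annotated gene on the opposite strand (Jph1, Bin1, Cmya5, Speg, Srl and Dysf). Dysf also overlaps the pseudogene Gm7498 on its own strand. Whether exons overlap was not examined, and the strand setting is not stated, so shared reads are neither shown nor excluded.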

Additional observations from a re-analysis of the deposited data

Results flagged for a closer look

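Speg and Jph1 are listed because the 5-month heart lay on opposite sides of both 14-month hearts in WT and KO. How often this happened over all genes was not counted. Both had an unadjusted interaction p under 0.05 (limma), as did 23.2% of all genes tested. The genes described here did not exceed that share. The difference of the age effect between the genotypes (KO less WT) was 1.02 log2 for Speg (limma adjusted p = 0.0755) and 0.60 log2 for Jph1 (limma adjusted p = 0.15), and neither passed that test. Each rests on 1 heart of 5 months per genotype.

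For Mtm1 the highest of the 4 hearts of 14 months, WT replicate 2 at 318, stood apart from the others at 283 to 286, with a gap of 0.895 of the whole range, above Dixon's limit. Chance gives about 1 such case in 20 groups, and 10 genes were looked at.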

How the results depend on the processing

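Of 400 values of the 10 genes under the alternatives, 345 kept direction and side of the threshold, 46 changed sign, 9 newly passed and 0 lost a call; the calls of Mtm1 and Cav3 by age held throughout. The replicate block, with 2 residual degrees of freedom, gave 0 genes and 0 of the 10 genes called by genotype, and it changed no call.

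Under quantile normalization the sign changed for genotype in Srl (0.093) and Tmem38a (0.045), for age in Srl (−0.22), Dysf (−0.015) and Tmem38a (−0.033), and for the interaction in Jph2 (0.043), Srl (0.22) and Tmem38a (0.073). Under scaling to the total without mitochondrially encoded genes it changed for genotype in Srl (0.064) and Tmem38a (0.052), and for age in Jph1 (−0.0074), Speg (−0.029), Srl (−0.16) and Dysf (−0.18). For the interaction it changed in Jph2 (0.099), Bin1 (0.12), Srl (0.15), Dysf (0.17) and Tmem38a (0.077). That scaling moves the median over all genes by 0.10 for genotype, −0.20 for age and 0.27 for the interaction. In the 14-month hearts alone the genotype difference changed sign in Jph1 (−0.019), Mtm1 (−0.080), Speg (−0.017) and Tmem38a (0.012). Without replicate 2 of both genotypes, which leaves 1 residual degree of freedom, it changed in Jph2 (−0.12) and Cav3 (−0.087), and the age difference in Dysf (−0.056). That setting keeps only libraries of high Y-linked signal, and the age differences in it were 0.91 log2 for Mtm1 and 0.67 for Cav3.

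By genotype 14 genes, Trdn among them, passed at 14 months alone and 39 without replicate 2 of both genotypes, and by age 3011 without those libraries, against 4663. The interaction count of 287 became 4 without a filter, 12 under quantile normalization, 7 without the trend and robust options, and 750 (1 of the 10 genes, Speg) by the non-mitochondrial total; the cause was not tested.

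Leaving out each library in turn, the genotype count ran from 0 to 5, the age count from 3246 to 4533 and the interaction count from 13 (without WT replicate 2; 15 without WT replicate 1) to 234. Genotype differences ran from −0.019 to 0.25 for Jph1, −0.057 to 0.10 for Jph2, −0.080 to 0.12 for Mtm1, −0.017 to 0.52 for Speg, −0.070 to 0.19 for Cav3 and −0.089 to 0.012 for Tmem38a. Age differences ran from −0.11 to 0.49 for Jph1, −0.19 to 0.0092 for Cmya5, −0.34 to 0.68 for Speg, −0.019 to 0.10 for Srl and −0.033 to 0.070 for Dysf. The interaction of Dysf ran from −0.21 to 0.0081. Of the 10 genes, 2 to 5 were called by age (5 without WT replicate 3: Mtm1, Cav3, Jph1, Speg and Jph2) and 0 to 1 for the interaction. With 1 heart of 5 months left, that heart is assumed to vary like the others.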

Other observations

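The per-kb ratio of Srl to Casq2, the lumenal calcium-binding proteins, was 0.475 to 0.523 in the 4 hearts of 14 months and 0.414 and 0.417 at 5 months in WT and KO. The ratio of Mtm1 to Mtmr2, a related phosphatase, was 0.884 to 0.991 at 14 months and 1.28 and 1.31 at 5 months, with a mean of 1.05 over the 6 hearts, or 0.340 per kb of merged exons. These ratios were chosen after other values had been seen and were not tested. Adipocyte markers, 7 genes, summed to 382 to 771 in WT hearts and 372 to 1841 in KO, and erythroid markers, 5 genes, to 6782 to 66820 in WT and 2727 to 19386 in KO. Endothelial markers, 7 genes, summed to 19396 to 22073 in WT hearts and 18226 to 22980 in KO hearts, and smooth muscle and pericyte markers, 7 genes, to 15177 to 17066 and 11040 to 17244. Macrophage markers, 7 genes, summed to 3043 to 3692 in WT hearts and 2308 to 3853 in KO hearts. Skeletal muscle markers, 10 genes of which 4 were at 0 in at least 1 library, summed to 1217 to 4999.6 and 1277 to 2575. The genotypes overlapped in each of these 6 sums, whose part in the results was not tested.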
